A study of Rattus norvegicus with 63 samples.

Results

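The 10 genes described here, Snph, Dnm1l, Mfn1, Mfn2, Opa1, Kif5a, Kif5b, Kif5c, Trak2 and Rhot1, encode proteins that dock, move, divide and fuse mitochondria in axons. They were taken by symbol, from the probe sets of a rat expression array that carry that symbol alone, and they are 10 of the 14218 genes so named. The 10 genes have 19 probe sets, and each gene was read from its probe set of highest mean log2 signal. The list was drawn up with results of these arrays known, and the mean signals that picked the probe sets are not tested. All 10 genes passed the filter on low signal in both regions, where 8530 genes were tested.

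Mitochondria travel along axonal microtubules on kinesin-1, whose heavy chains are KIF5A, KIF5B and KIF5C. Adaptors of the TRAK family (TRAK2 here) join the motor to RHOT1, also called Miro1, a calcium-binding GTPase of the outer mitochondrial membrane. Syntaphilin, the product of Snph, holds axonal mitochondria in place on microtubules, as shown in mouse neurons. DNM1L, also called DRP1, is the dynamin-like GTPase that constricts and divides mitochondria. MFN1 and MFN2 fuse outer membranes, and OPA1 fuses inner membranes and shapes cristae.

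The arrays came from male Wistar rats, 4 weeks old on arrival and 6 weeks old when injections began, 2 times daily for 7 days. In the pretreated cohort the injections were 5 mg/kg amphetamine, methamphetamine or methylphenidate, and the same drug at 5 mg/kg served for place conditioning. Rats of the naive cohort received saline injections and were then conditioned with 1.25 or 5 mg/kg amphetamine, 1.25 or 5 mg/kg methamphetamine, or 5 mg/kg methylphenidate. Stimulant rats then self-administered their drug, at 0.1 mg/kg per infusion of amphetamine or methamphetamine and 0.25 mg per 0.1 ml infusion of methylphenidate. The saline rats of each cohort were labelled saline at every stage, with 0.1 ml infusions. The prefrontal cortex (PFC) and a striatal piece holding rostral caudate putamen and nucleus accumbens were taken a day after the last session, from the stimulant rats that self-administered most. There were 31 PFC and 32 striatal arrays in 20 groups, with 3 arrays per stimulant group (2 for 1.25 mg/kg methamphetamine in the naive PFC), 3 per pretreated saline group and 5 per naive saline group. The labels speak both of pooled RNA and of about as many rats as arrays, so the p-values measure the spread between arrays, which may be partly technical. All tissue was bulk, in which fewer cells of a type and less RNA per cell cannot be told apart.

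Some arrays stood apart. The BioB spike, a bacterial transcript added before hybridisation, read 6.09 to 6.61 (log2) on 8 naive PFC arrays and 6.22 to 6.85 on 8 naive striatal arrays, against 9.37 to 10.6 on the other 11 naive PFC arrays and 9.56 to 10.4 on the other 12 naive striatal arrays. The low-spike arrays were those of 5 mg/kg amphetamine, methylphenidate and saline replicates 4 and 5. Striatal replicate 1 of 1.25 mg/kg methamphetamine (naive) had the cortical profile, with a striatal projection neuron marker mean of 9.02, against 12.3 to 12.8 in the naive striatal saline arrays. In the pretreated striatum the mean of the cortical neuron markers was 6.57 to 8.25 on stimulant arrays, highest under methylphenidate, and 6.23 to 7.07 on saline arrays. The mean of the striatal projection neuron markers was 12.07 to 12.37 on stimulant arrays, all below the saline arrays at 12.41 to 12.57. There all 3 of the 3 tested cortical markers were positive, with a median of 1.18 and none past the test, and the Gapdh 3' minus 5' difference, a sign of RNA integrity, was 0.88 to 1.24 on stimulant arrays and 0.74 to 1.04 on saline arrays. Their part in the results was not tested beyond the values without arrays given below.

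The mean of the stimulants was first compared with saline in each region and cohort. In the pretreated striatum the docking gene Snph and the motor gene Kif5a were higher after the stimulants and the fission gene Dnm1l was lower, by limma with Benjamini-Hochberg adjustment over 8530 genes. These were 3 of the 10 genes, in a comparison in which 0.363% of all tested genes passed, 0.211% as higher and 0.152% as lower. The median difference of the 10 genes there was 0.23 on the log2 scale, against -0.01 over all genes. None of the 10 passed in the pretreated PFC, the naive striatum or the naive PFC, where limma called 0.0703%, 0.0938% and 0.0586% of genes. At an unadjusted p under 0.05 these 3 comparisons held 0, 0 and 1 of the 10 genes, against 5.45%, 11.5% and 8.73% of all genes, and the pretreated striatum held 4, against 16.2%. The 1 gene in the naive PFC was Snph, with a difference of -0.14 (adjusted p = 0.524 in limma). The 10-gene medians were 0.07 in the pretreated PFC, -0.08 in the naive striatum and 0.03 in the naive PFC.

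**Figure D1:**
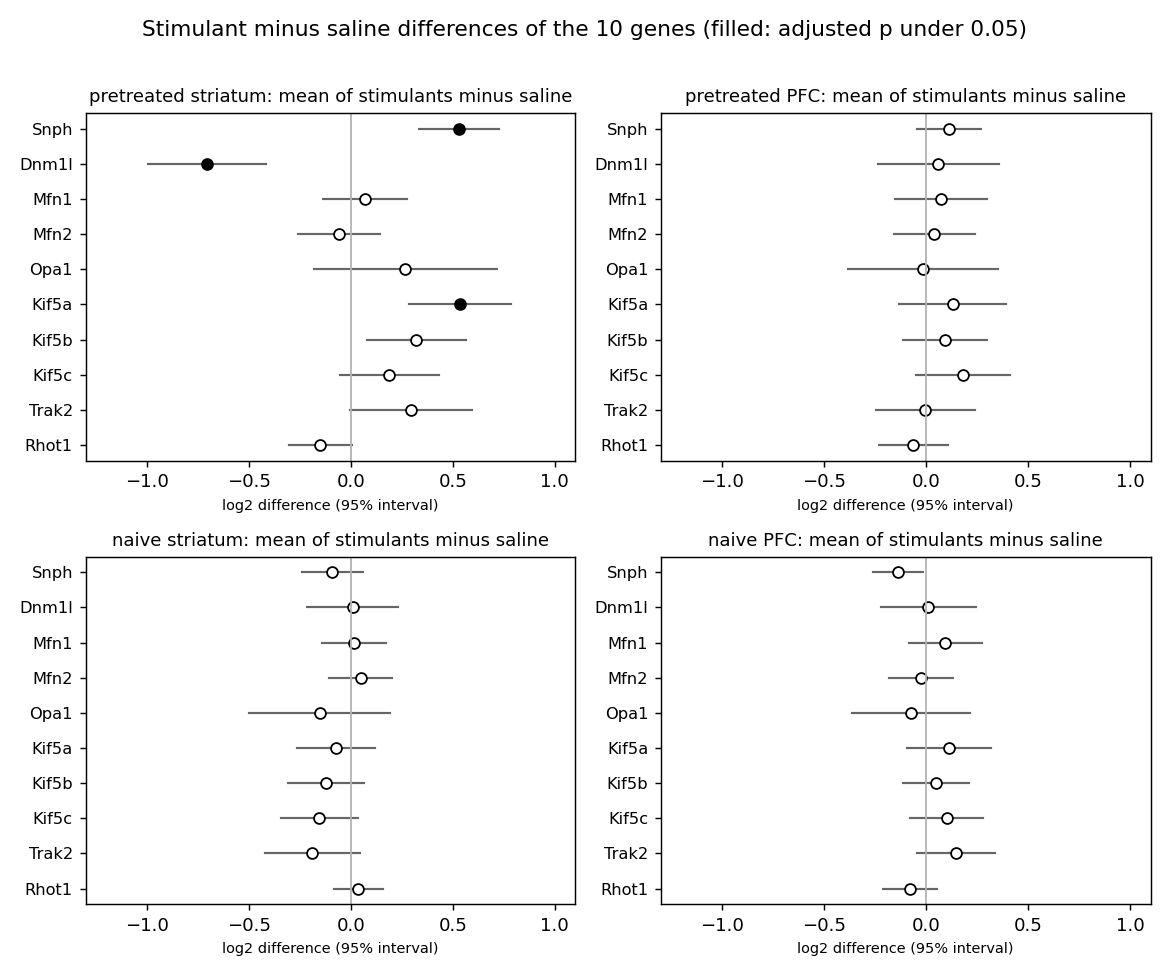
Log2 difference of each of the 10 genes, mean of the stimulant groups minus saline, with its 95% interval, in 4 panels for cohort and region, and filled points for an adjusted p under 0.05. Snph at 0.53, Kif5a at 0.54 and Dnm1l at -0.71 in the pretreated striatum are the filled points, and the other 3 panels hold none.

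Snph, the docking gene, had log2 signals of 11.02, 10.85 and 10.81 in the pretreated striatum after amphetamine, 10.87, 11.01 and 10.89 after methamphetamine and 11.09, 11.25 and 10.80 after methylphenidate. The 3 saline arrays of the cohort read 10.48, 10.37 and 10.41. All 9 stimulant arrays lay above all 3 saline arrays, which was true of 2.75% of all genes in that comparison. The difference was 0.53 ± 0.10 (SE), a fold of 1.45, with an adjusted p of 0.0109. The call was lost without saline replicate 1 (0.56, adjusted p = 0.0662), 2 (0.51, adjusted p = 0.099) or 3 (0.53, adjusted p = 0.078). It held without the methylphenidate arrays, which have the highest cortical markers (0.49 on the log2 scale, adjusted p = 0.0263). The amphetamine and methamphetamine arrays left had projection neuron marker means of 12.14 to 12.37, still below all 3 saline arrays, so that fit does not take out this marker difference.

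Across the striatal groups, the mean Snph level after the stimulants lay in the range of the naive groups, and that of pretreated saline lay below it. The 15 naive striatal stimulant arrays ran from 10.60 to 11.24 with a median of 11.00, and the naive saline arrays read 11.02, 11.16, 11.11, 11.09 and 10.86. Among the 10 striatal groups, ordered by mean, 9 lay between 10.86 and 11.10, with no neighbours further apart than 0.06, inside the residual SD of 0.14. The pretreated saline group came last at 10.42, a gap of 0.43 below 5 mg/kg amphetamine in the naive cohort. Between the saline groups, the pretreated cohort minus the naive cohort gave -0.63 ± 0.10 in the striatum (adjusted p = 0.0021) and -0.45 ± 0.08 in the PFC (adjusted p = 0.0095), where 3.13% and 1.86% of genes passed. This comparison was added after the values were seen, and the cohort and any condition of its handling cannot be told apart. With the saline means of both cohorts, weighed alike, as reference, Snph differed by 0.22 (adjusted p = 0.0776). That reference was also added after the values were seen, and the difference holds part of the cohort gap.

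In the PFC, Snph read 10.98, 10.93 and 10.94 after amphetamine, 10.75, 10.73 and 10.86 after methamphetamine and 11.02, 11.00 and 10.87 after methylphenidate in the pretreated cohort, against 10.96, 10.64 and 10.76 in its saline arrays. The groups overlapped, with a difference of 0.11 ± 0.08 (adjusted p = 1.00). Naive PFC stimulant arrays ran from 10.94 to 11.25 with a median of 11.11, and naive PFC saline arrays read 11.48, 11.28, 11.08, 11.17 and 11.17. In the naive PFC 13 of 14 stimulant arrays lay below the saline mean, and the groups overlapped. How many of all genes had such a count was not taken.

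Dnm1l, the fission gene, read 9.10, 9.09 and 9.16 in the pretreated striatum after amphetamine, 9.19, 9.54 and 9.31 after methamphetamine and 9.24, 9.47 and 9.70 after methylphenidate. Its saline arrays read 10.22, 9.82 and 10.01. All 9 stimulant arrays lay below all 3 saline arrays, as in 3.34% of all genes. The difference was -0.71 ± 0.14, a fold of 0.613, with an adjusted p of 0.0253. The call was lost without saline replicate 1 (-0.60, adjusted p = 0.259) or 3 (-0.71, adjusted p = 0.125). It held without the methylphenidate arrays (-0.79, adjusted p = 0.0263), a fit that keeps the projection neuron marker difference.

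For Dnm1l too the pretreated saline arrays were the group apart. Naive striatal saline arrays read 9.23, 8.89, 8.93, 9.36 and 9.12, below all 3 pretreated saline arrays, and the difference of the pretreated minus the naive saline group was 0.91 ± 0.15 (adjusted p = 0.0021). The pretreated striatal saline mean of 10.02 led the 10 groups, a gap of 0.55 above the next, methylphenidate after pretreatment, where the residual SD was 0.22. Against the saline arrays of both cohorts the stimulants differed by -0.25 (adjusted p = 0.16). In the pretreated PFC the 9 stimulant arrays ran from 9.61 to 10.06 with a median of 9.85. The PFC saline arrays of the cohort, at 9.35, 10.06 and 9.98, overlapped the stimulant arrays of the cohort, and the PFC saline difference between cohorts was 0.35 (adjusted p = 0.219).

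The Dnm1l promoter window is printed because Dnm1l was the only one of the 3 called genes with an entry among the promoter sequences (7 of the 10 genes had one), and those of Kif5b and Trak2 because they carry the regional differences below. Each window runs from 250 bases before to 50 bases after the start, 5′ to 3′ on the gene's strand, from RefSeq on the GRCr8 build. Capitals mark matches on either strand to 5 motifs, the E-box CACGTG, the cAMP response element TGACGTCA, the NRF1 core, the GC box GGGCGG and the TATA box TATAAA. The windows are chr11:98085147-98085446 (plus strand) for Dnm1l, chr17:56185136-56185435 (plus strand) for Kif5b and chr9:67908109-67908408 (minus strand) for Trak2.
Dnm1l: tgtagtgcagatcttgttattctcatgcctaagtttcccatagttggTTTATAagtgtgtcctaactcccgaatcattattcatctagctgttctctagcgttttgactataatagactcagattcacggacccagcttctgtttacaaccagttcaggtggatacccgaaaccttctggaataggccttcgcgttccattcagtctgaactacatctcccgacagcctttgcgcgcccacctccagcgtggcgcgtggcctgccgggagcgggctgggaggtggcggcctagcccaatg
Kif5b: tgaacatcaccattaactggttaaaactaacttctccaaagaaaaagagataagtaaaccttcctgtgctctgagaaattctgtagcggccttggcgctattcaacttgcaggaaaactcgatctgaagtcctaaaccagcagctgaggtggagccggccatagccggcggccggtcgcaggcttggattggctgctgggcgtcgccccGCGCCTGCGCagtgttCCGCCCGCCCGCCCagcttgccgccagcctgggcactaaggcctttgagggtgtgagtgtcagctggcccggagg
Trak2: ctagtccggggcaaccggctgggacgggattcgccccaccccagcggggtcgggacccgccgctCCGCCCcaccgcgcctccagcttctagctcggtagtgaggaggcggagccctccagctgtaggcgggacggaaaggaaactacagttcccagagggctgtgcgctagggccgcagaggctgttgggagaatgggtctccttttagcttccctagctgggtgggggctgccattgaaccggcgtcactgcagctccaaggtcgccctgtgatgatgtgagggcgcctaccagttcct
Dnm1l held 1 TATA box match, whose first base lies at -203. Kif5b held 1 NRF1 core match, at -41, and 3 overlapping GC box matches, and Trak2 held 1 GC box match at -186. Of all 33469 promoter windows, 14.2% held the TATA box, 4.25% the NRF1 core, 33.1% the GC box, 6.42% the E-box and 1.83% the cAMP response element. These matches are letters in a window and say nothing of binding.

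The fusion genes did not pass in any mean comparison. Mfn1 differed by 0.07 ± 0.10 in the pretreated striatum, Mfn2 by -0.06 ± 0.10 and Opa1 by 0.27 ± 0.22. For Mfn1 the 9 stimulant arrays averaged 9.80 ± 0.14 and the 3 saline arrays 9.73 ± 0.12 (SD), and for Mfn2 11.47 ± 0.09 and 11.53 ± 0.15. Opa1 averaged 8.17 ± 0.40 in stimulant arrays and 7.90 ± 0.49 in saline arrays, and its saline arrays alone read 8.47, 7.70 and 7.55. Opa1 was the noisiest of the 10 genes in the striatum, with a residual SD of 0.35.

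Mfn2 in the naive cohort moved with the BioB spike. In the PFC its saline replicates 4 and 5, on low-spike arrays, read 11.84 and 11.68, and replicates 1 to 3 read 11.17, 11.28 and 11.25. Low-spike stimulant arrays read 11.75, 11.62 and 11.51 after 5 mg/kg amphetamine and 11.65, 11.72 and 11.83 after methylphenidate, above every naive PFC array of methamphetamine, which ran from 11.03 to 11.41. The part of the spike group in these levels was not tested apart from the blocked values given below.

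Kif5a, a kinesin-1 heavy chain of neurons, read 13.08, 12.65 and 12.64 in the pretreated striatum after amphetamine, 12.59, 13.17 and 12.63 after methamphetamine and 12.95, 13.05 and 12.50 after methylphenidate. Its saline arrays read 12.27, 12.35 and 12.19. All 9 stimulant arrays lay above all 3 saline arrays, by 0.54 ± 0.12 on average, a fold of 1.45 with an adjusted p of 0.0465. The call was lost in 8 of 12 fits without 1 array, namely without saline replicate 1 (0.54, adjusted p = 0.259), 2 (0.58, adjusted p = 0.142) or 3 (0.49, adjusted p = 0.248), amphetamine replicate 1 (0.49, adjusted p = 0.0869) or 2 (0.56, adjusted p = 0.051), methamphetamine replicate 2 (0.47, adjusted p = 0.0686) and methylphenidate replicate 1 (0.52, adjusted p = 0.0732) or 2 (0.50, adjusted p = 0.086). It was also lost without the signal filter (adjusted p = 0.0514), without the intensity trend (0.0526) and with the pretreated arrays alone (0.0715).

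Naive striatal Kif5a ran from 12.21 to 12.92 with a median of 12.48 in stimulant arrays, and read 12.33, 12.60, 12.70, 12.76 and 12.61 in saline arrays. The pretreated saline group was again the lowest of the 10 striatal groups, at 12.27, but no neighbours in the order lay further apart than 0.15, inside the residual SD of 0.19. Unlike Snph and Dnm1l, Kif5a passed against the saline arrays of both cohorts (0.37, adjusted p = 0.0281). That reference, added after the values were seen, weighs the saline means of the cohorts alike, so the difference holds part of the cohort gap. The Kif5a saline difference, pretreated minus naive, was -0.33 (adjusted p = 0.159).

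**Figure D2:**
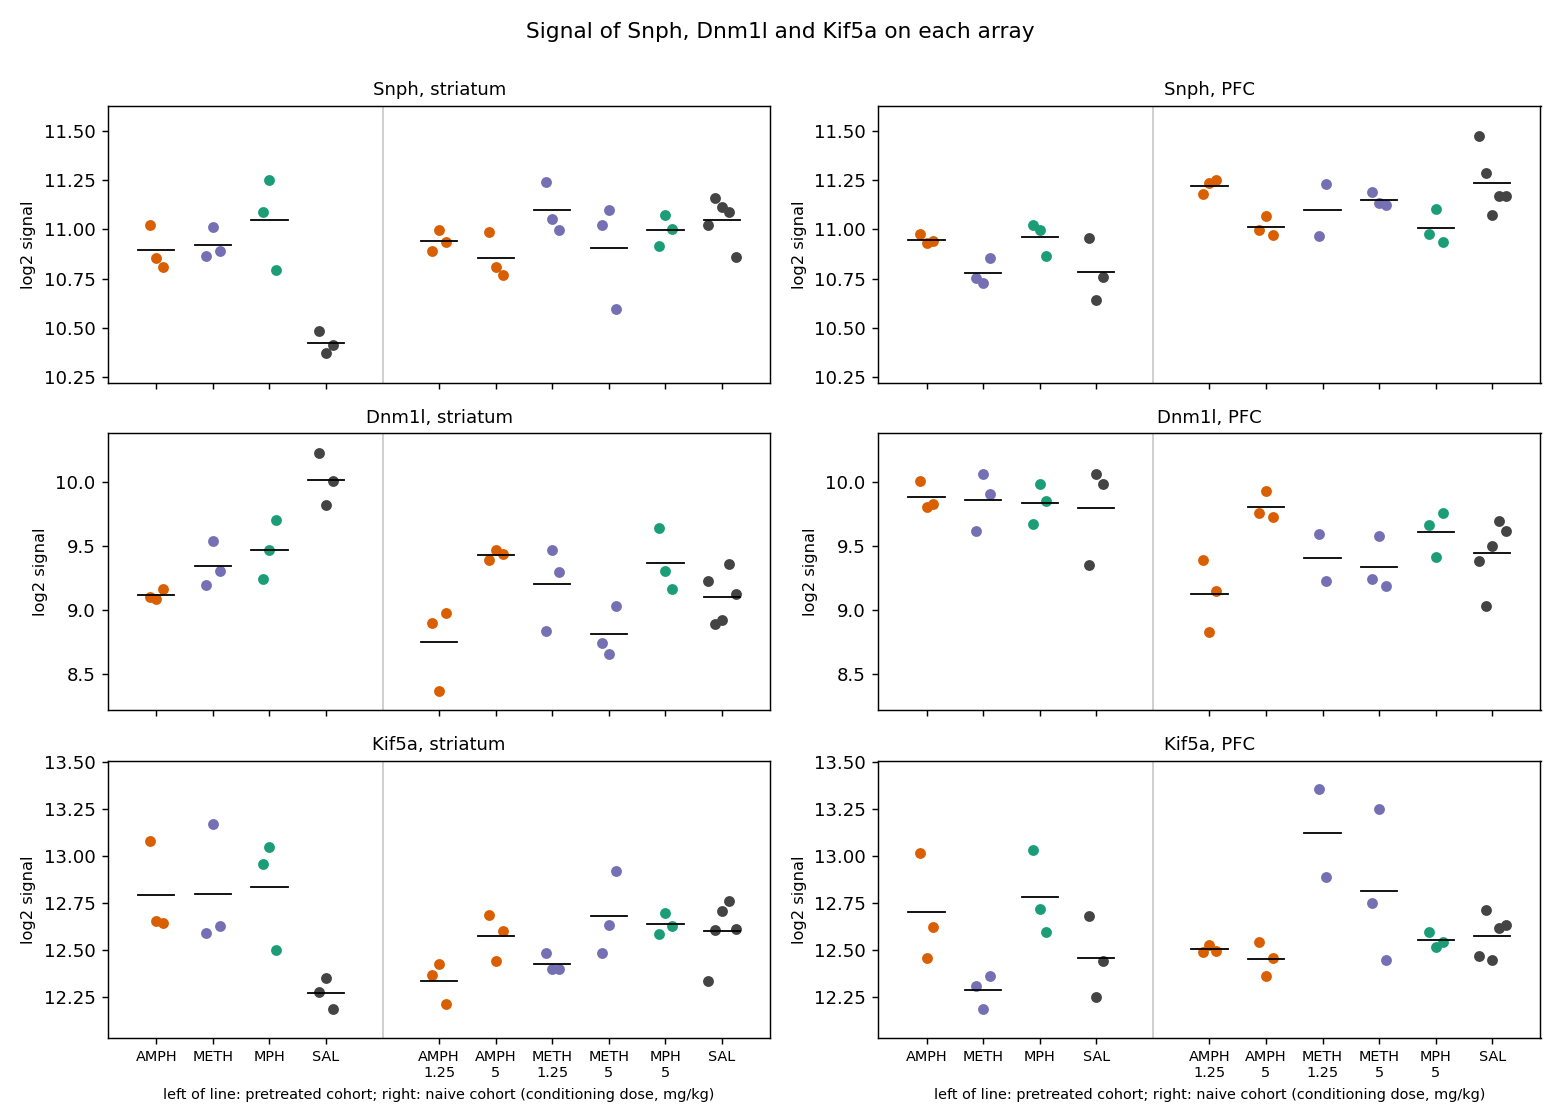
Log2 signal of Snph, Dnm1l and Kif5a on every array (points, coloured by drug, with AMPH amphetamine, METH methamphetamine, MPH methylphenidate and SAL saline) and the mean of each group (bars), striatum at left and PFC at right, with the pretreated cohort left of each grey line and the naive cohort, with conditioning doses in mg/kg, right of it. In the striatum the 3 pretreated saline arrays sit lowest for Snph, at 10.37 to 10.48, and highest for Dnm1l, at 9.82 to 10.22.

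Kif5b, the kinesin-1 heavy chain found in most cell types, averaged 13.48 ± 0.23 in pretreated striatal stimulant arrays and 13.16 ± 0.07 in saline arrays. Its difference of 0.32 ± 0.12 did not pass (adjusted p = 0.189). Of 9 stimulant arrays 8 lay above all 3 saline arrays, a count whose share over all genes was not taken. Kif5c, the remaining heavy chain, averaged 12.42 ± 0.22 and 12.23 ± 0.15, a difference of 0.19 ± 0.12 (adjusted p = 0.436). The 3 heavy chains thus all had positive differences in the pretreated striatum, and Kif5a alone passed by its brightest probe set.

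Trak2, the motor adaptor, averaged 12.66 ± 0.30 in pretreated striatal stimulant arrays and 12.37 ± 0.16 in saline arrays, a difference of 0.29 ± 0.15 (adjusted p = 0.317). Rhot1, its membrane anchor, averaged 10.58 ± 0.09 and 10.73 ± 0.04, a difference of -0.15 ± 0.08 (adjusted p = 0.326). All 9 Rhot1 stimulant arrays lay below the saline mean and 8 of 9 below all 3 saline arrays, but the size was small. The share of all genes with such counts was not taken. Rhot1 had the smallest spread of the 10 genes in the striatum, with a residual SD of 0.10.

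Different probe sets of a gene did not always read alike. Over all 12499 probe sets tested in the pretreated striatum, the second Snph probe set differed by 0.16 ± 0.15 (adjusted p = 0.613), with means of 8.46 in stimulant and 8.30 in saline arrays. The other Kif5a probe sets differed by 0.21 ± 0.14 (adjusted p = 0.476) and 0.43 ± 0.20 (adjusted p = 0.275). A second Kif5c probe set, at 8.32 in stimulant and 7.53 in saline arrays, was higher by 0.80 ± 0.18 (adjusted p = 0.0408), unlike the brighter one. It was named after its values were seen. The values of the third Kif5c and of the second Kif5b and Trak2 probe sets are not listed here, and none of those tested passed. The second Dnm1l and Opa1 probe sets lay below the signal filter, with differences of -0.42 ± 0.23 and -0.24 ± 0.21. With the mean of all probe sets of a gene, Snph differed by 0.35 (adjusted p = 0.107), Dnm1l by -0.56 (adjusted p = 0.0768) and Kif5a by 0.39 (adjusted p = 0.18), so that 0 of the 10 genes passed.

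**Figure D3:**
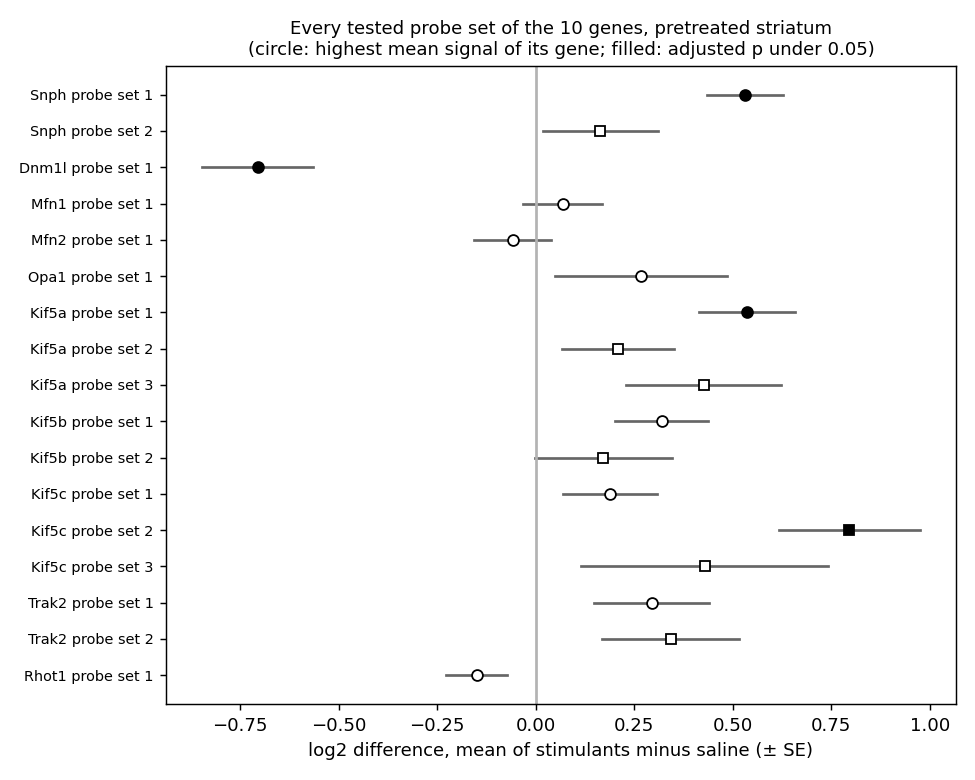
Log2 difference, mean of the stimulants minus saline in the pretreated striatum, with its SE, for every tested probe set of the 10 genes (circles for the brightest of each gene, squares for the others, filled for an adjusted p under 0.05 over all probe sets). The second Snph probe set sits at 0.16, below the first at 0.53, and the second Kif5c probe set at 0.80 is the only filled square.

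Each stimulant was then set against its own cohort's saline, in 16 comparisons that share saline arrays within a region and cohort. In the pretreated striatum Snph was higher by 0.47 ± 0.12 after amphetamine (adjusted p = 0.207), 0.50 ± 0.12 after methamphetamine (adjusted p = 0.042) and 0.62 ± 0.12 after methylphenidate (adjusted p = 0.048). These comparisons called 0%, 0.703% and 0.0821% of all genes, so the miss under amphetamine is no sign of a smaller difference. Without 1 array the methamphetamine call held only without methamphetamine replicate 1 (0.53) and the methylphenidate call only without methylphenidate replicate 3 (0.75), of 6 fits each, in which the difference ranged from 0.46 to 0.53 and from 0.52 to 0.75. With the mean of both Snph probe sets the difference was 0.30 after methamphetamine (adjusted p = 0.231) and 0.49 after methylphenidate (adjusted p = 0.121). Dnm1l differed by -0.90 ± 0.17 after amphetamine (adjusted p = 0.098), -0.67 ± 0.17 after methamphetamine (adjusted p = 0.0619) and -0.55 ± 0.17 after methylphenidate (adjusted p = 0.213). Kif5a differed by 0.52 after amphetamine (adjusted p = 0.267), 0.52 after methamphetamine (adjusted p = 0.0851) and 0.56 after methylphenidate (adjusted p = 0.139). The other 7 genes did not pass after any of these drugs.

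The only other calls against saline were in the naive PFC after 1.25 mg/kg methamphetamine, a group of 2 arrays in whose comparison 11.1% of all genes passed. Both arrays had lower neuronal marker means (10.9 and 11.1) than the naive PFC saline arrays (11.3 to 11.4). The Gapdh 3' minus 5' difference was 0.80 and 0.42 on them, against 0.25 to 0.37 on the saline arrays of the same spike group, and their part in the calls was not tested. Kif5a read 13.35 and 12.88 in these arrays, against 12.46, 12.71, 12.44, 12.61 and 12.63 in saline, a difference of 0.55 ± 0.16 (adjusted p = 0.0316). Kif5b read 13.53 and 13.14, against 12.81, 12.92, 12.82, 13.08 and 12.98, a difference of 0.41 ± 0.13 (adjusted p = 0.0351). Mfn2 read 11.03 and 11.11, lower by 0.38 (adjusted p = 0.0455), a difference that was -0.17 (adjusted p = 0.227) with the spike group as a block. Kif5a was 0.58 with that block (adjusted p = 0.0525), and with quantile normalization Kif5a was 0.40 (adjusted p = 0.0563) and Kif5b 0.19 (adjusted p = 0.183). For 5 of the 10 genes, these 3 among them, both stimulant arrays lay beyond all 5 saline arrays, as did 26.8% of all genes.
These calls rest on few arrays. Without methamphetamine replicate 1 the differences were 0.31 for Kif5a (adjusted p = 0.606), 0.22 for Kif5b (adjusted p = 0.646) and -0.34 for Mfn2 (adjusted p = 0.503). Mfn2 was also lost without methamphetamine replicate 2 (-0.42) or saline replicates 4 (-0.28) or 5 (-0.32), Kif5a without saline replicate 3 (0.51), and Kif5b without saline replicates 1 (0.39), 3 (0.39) or 5 (0.43). At 5 mg/kg methamphetamine the naive PFC differences were 0.24 for Kif5a, 0.02 for Kif5b and -0.12 for Mfn2, none past the test. In the other 13 of the 16 comparisons limma called 0 of the 10 genes, and the number at an unadjusted p under 0.05 ran from 0 to 4, where 3.48% to 14.7% of all genes were under it. The 4 were in the pretreated striatum after amphetamine, where 8.72% of all genes were. After adjustment, among all genes limma called 0.492%, 0.0117%, 0.0352% and 0% in the naive PFC after 1.25 and 5 mg/kg amphetamine, 5 mg/kg methamphetamine and methylphenidate. In the naive striatum it called 0.34% and 0% after 1.25 and 5 mg/kg amphetamine, 0.188% and 0.328% after 1.25 and 5 mg/kg methamphetamine and 0.129% after methylphenidate. In the pretreated PFC it called 0.0234%, 0.0117% and 0.0938% after amphetamine, methamphetamine and methylphenidate.

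**Figure D4:**
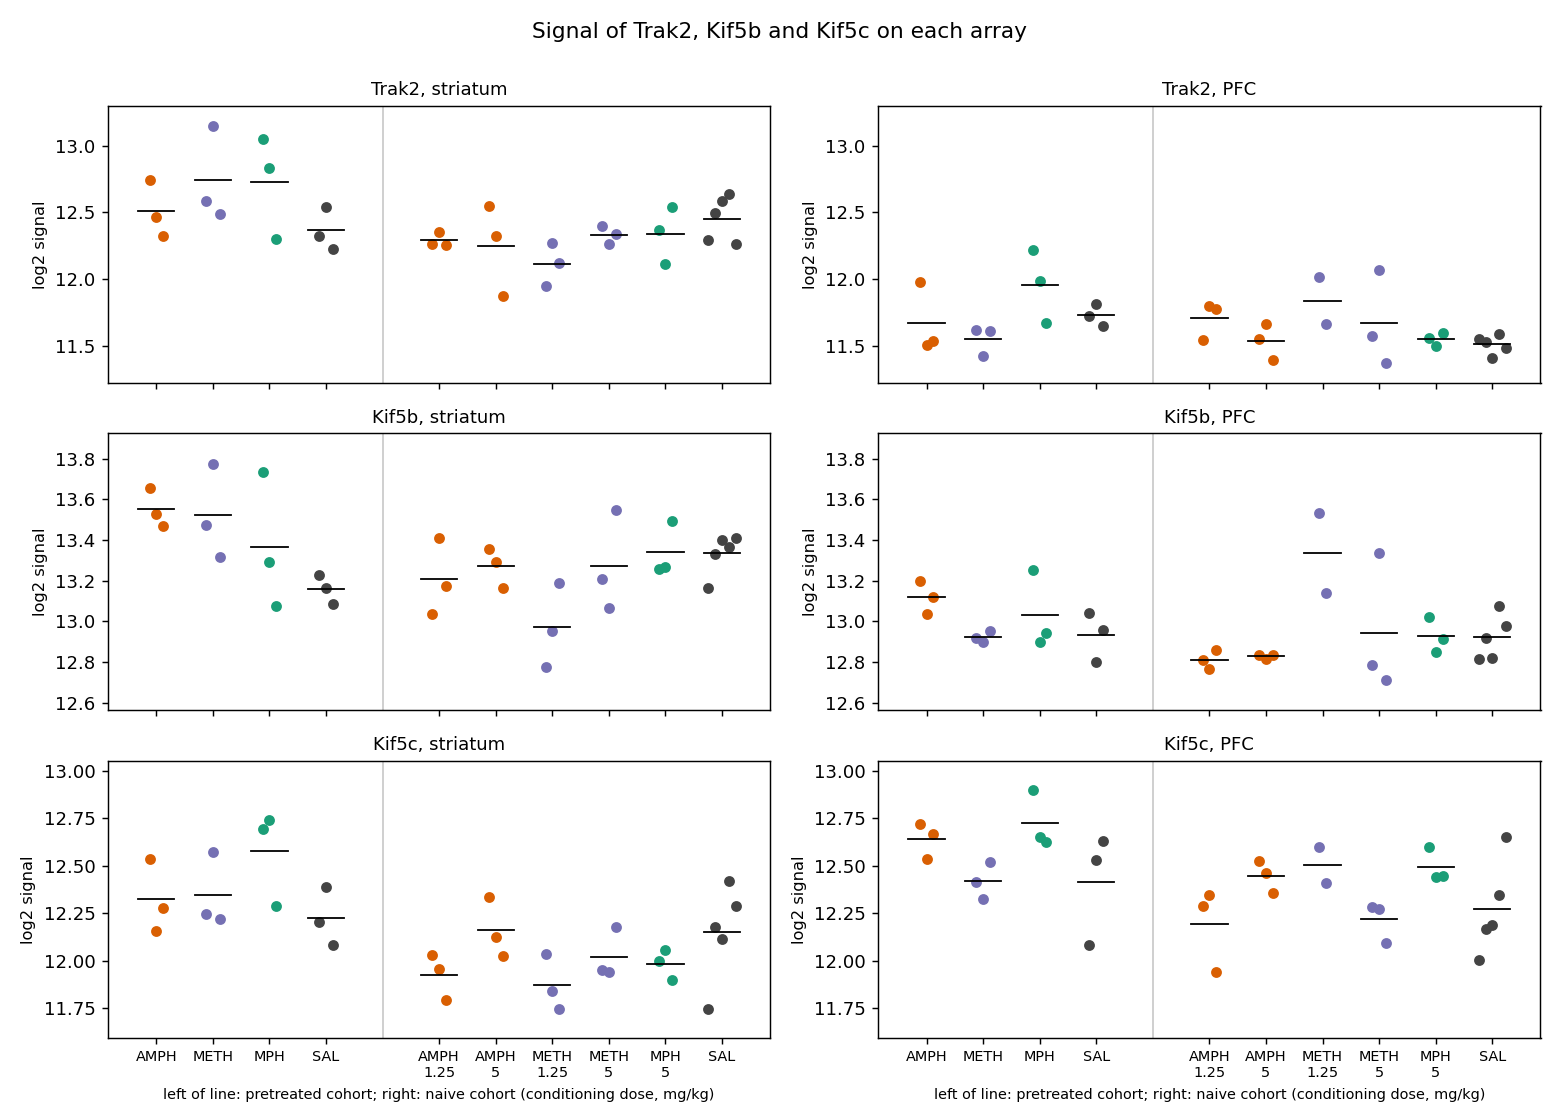
Log2 signal of Trak2, Kif5b and Kif5c on every array (points, coloured by drug, with AMPH amphetamine, METH methamphetamine, MPH methylphenidate and SAL saline) and group means (bars), striatum at left and PFC at right, with the pretreated cohort left of each grey line and the naive cohort right of it. For Kif5b in the naive PFC the 2 arrays of 1.25 mg/kg methamphetamine, at 13.53 and 13.14, lie above the 5 saline arrays, and striatal Trak2 lies above PFC Trak2 in the saline groups.

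Stimulants were compared with each other in 14 pairs at matched conditioning dose, with p-values adjusted over the 8530 genes within each pair and not over the pairs. Methamphetamine is amphetamine with a methyl group on its nitrogen. At 1.25 mg/kg in the naive PFC, methamphetamine exceeded amphetamine by 0.62 ± 0.18 for Kif5a (adjusted p = 0.0396) and by 0.52 ± 0.14 for Kif5b (adjusted p = 0.0321), where 6.26% of genes passed. Both calls were lost without methamphetamine replicate 1 (0.38 for Kif5a and 0.33 for Kif5b) and without each of the 3 amphetamine arrays (0.61 to 0.63 for Kif5a, 0.50 to 0.55 for Kif5b). In the striatum at that dose the same genes differed by 0.09 and -0.23, neither past the test.
No pair at 5 mg/kg passed for any of the 10 genes in limma, with 0 to 4 of them at an unadjusted p under 0.05, where 3.08% to 20.2% of all genes were under it. The 4 were in methamphetamine against amphetamine in the naive PFC, where 19.9% of all genes were. All genes called after adjustment in those pairs were 1.45% and 1.85% for methamphetamine against amphetamine and methylphenidate in the naive PFC, 1.58% and 1.57% for the same pairs in the naive striatum, and 0% in the other 8 pairs at that dose and at 1.25 mg/kg in the striatum. In the pretreated striatum, methamphetamine minus amphetamine was 0.03 for Snph (95% interval -0.21 to 0.27), 0.23 for Dnm1l (-0.12 to 0.58) and 0.00 for Kif5a (-0.30 to 0.31). Amphetamine minus methylphenidate was -0.15 for Snph (-0.39 to 0.09), -0.35 for Dnm1l (-0.71 to -0.00) and -0.04 for Kif5a (-0.35 to 0.27). Methamphetamine minus methylphenidate was -0.12 for Snph (-0.36 to 0.12), -0.13 for Dnm1l (-0.48 to 0.23) and -0.04 for Kif5a (-0.34 to 0.27). The adjusted p-values of these 9 differences ran from 0.790 to 0.999, and the intervals, which are not adjusted, are too wide to show that the drugs act alike. In the naive striatum Dnm1l differed by -0.62 for methamphetamine minus amphetamine (adjusted p = 0.0589) and by -0.56 for methamphetamine minus methylphenidate (adjusted p = 0.0787), pairs that also differ in spike group.

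Dose was compared in the naive cohort. For amphetamine, Dnm1l read 9.76, 9.93 and 9.72 in the PFC at 5 mg/kg, against 9.39, 8.83 and 9.15 at 1.25 mg/kg. In the striatum it read 9.39, 9.47 and 9.44 at 5 mg/kg, against 8.90, 8.37 and 8.98 at 1.25 mg/kg. The arrays did not overlap in either region, which held for 5 of the 10 genes in the PFC and 3 in the striatum, Dnm1l included. The share of all genes without overlap was not counted there. The Dnm1l difference was 0.68 ± 0.18 in the PFC (adjusted p = 0.0221, 7.07% of genes called) and 0.68 ± 0.17 in the striatum (adjusted p = 0.0454, 1.68% called). All 5 mg/kg amphetamine arrays had the low BioB spike and all 1.25 mg/kg arrays the high one, so dose and spike group cannot be told apart within amphetamine. With the spike group as a block, estimated through the naive saline arrays that lie in both, the difference was 0.34 in the PFC (adjusted p = 0.816) and 0.46 in the striatum (adjusted p = 0.909). For methamphetamine, whose doses share a spike group, Dnm1l at 5 minus 1.25 mg/kg was -0.07 in the PFC and -0.39 in the striatum, neither past the test, and limma called 0% of all genes in either.
Leaving out 1 array ended the striatal amphetamine call in 6 of 6 fits (0.49 to 0.80) and the PFC call in 5 of 6 (0.54 to 0.82), all but that without replicate 1 of 1.25 mg/kg. None of the other 9 genes passed between doses in limma. In the 4 dose comparisons the genes at an unadjusted p under 0.05, Dnm1l included, were 4 in the PFC and 2 in the striatum for amphetamine, and 1 and 2 for methamphetamine. Of all genes 25.4% and 19.1% were under it for amphetamine in the PFC and the striatum, and 15.7% and 5.15% for methamphetamine.

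The effect of the stimulants at 5 mg/kg was then compared between cohorts, as the pretreated minus the naive difference from saline. In the striatum Snph gave 0.66 ± 0.12 (adjusted p = 0.027), where 0.0586% of genes passed. Dnm1l gave -0.80 ± 0.18 (adjusted p = 0.069), Kif5a 0.51 ± 0.16 (adjusted p = 0.122) and Trak2 0.44 ± 0.19 (adjusted p = 0.238). Dnm1l passed too in the fit without the naive striatal array of cortical profile. That array is of a 1.25 mg/kg group and no part of this difference, so only the estimate of the spread changed. These differences hold the gap between the saline groups in them, which for Snph was -0.63. They also cross spike groups, since the naive 5 mg/kg amphetamine and methylphenidate arrays had the low BioB spike. The pretreated striatal arrays read 9.58 to 10.3 for that spike. The Snph call was lost in 10 of 26 fits without 1 array, in which the difference ranged from 0.61 to 0.71 throughout. The 10 arrays were all 3 pretreated saline arrays, naive saline replicates 2 and 3, naive 5 mg/kg amphetamine replicates 2 and 3, naive methylphenidate replicate 1, pretreated amphetamine replicate 1 and pretreated methylphenidate replicate 1. In the PFC, Snph gave 0.29 ± 0.10 (adjusted p = 0.968), limma called none of the 10 genes, 0.0117% of all genes passed, and 1 of the 10 had an unadjusted p under 0.05, against 4.47% of all genes.
The effect in the striatum minus that in the PFC was also tested. Within the pretreated cohort it was 0.42 ± 0.12 for Snph, -0.76 ± 0.21 for Dnm1l and 0.41 ± 0.18 for Kif5a. None passed (adjusted p = 0.76, 0.76 and 0.957), and limma called 0% of all genes in either cohort, so that a striatal call beside a PFC miss is not shown to be a regional difference. At an unadjusted p under 0.05 there were 3 of the 10 genes in the pretreated and 1 in the naive cohort, and 5.13% and 6.34% of all genes.

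The regions were compared in saline rats. The labels do not say whether both regions came from the same rats. The arrays of the regions were fitted as independent here and in the comparison of effects above. Trak2 was the gene with the clearest regional level. In the naive cohort it read 12.30, 12.49, 12.58, 12.63 and 12.26 in the striatum, against 11.55, 11.53, 11.41, 11.59 and 11.49 in the PFC, a difference of 0.94 ± 0.13 (adjusted p = 4.85e-08). In the pretreated cohort it read 12.33, 12.54 and 12.23 in the striatum, against 11.72, 11.81 and 11.65 in the PFC, a difference of 0.64 ± 0.17 (adjusted p = 0.0029). The regions did not overlap in either cohort, and both calls held without any 1 array. The share of all genes without overlap between regions was not counted, here or for Kif5b and Snph below. Regional differences were common, with 27% of all genes past the test in the pretreated and 40.4% in the naive cohort, so that 2 and 3 of the 10 genes are not above the background.
Kif5b was higher in the striatum by 0.41 ± 0.11 in the naive cohort (adjusted p = 0.0013), with all 5 striatal saline arrays above all 5 PFC arrays, and by 0.23 ± 0.14 in the pretreated cohort (adjusted p = 0.226). Dnm1l was lower in the naive striatum by 0.34 (adjusted p = 0.0452), but 0.22 higher in the pretreated striatum (adjusted p = 0.399). The naive Dnm1l call was kept in 3 of 10 fits without 1 array, those without PFC replicate 2 or striatal replicates 1 or 4, in a range of -0.44 to -0.28. Snph was lower in the pretreated striatum by 0.36 (adjusted p = 0.0065) with no overlap, and differed by -0.19 ± 0.08 in the naive cohort (adjusted p = 0.061). Without pretreated PFC saline replicate 1, which has high striatal markers, Snph differed by -0.28 (adjusted p = 0.0753). Mfn1, Mfn2, Opa1, Kif5a, Kif5c and Rhot1 passed in neither cohort.

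**Figure D5:**
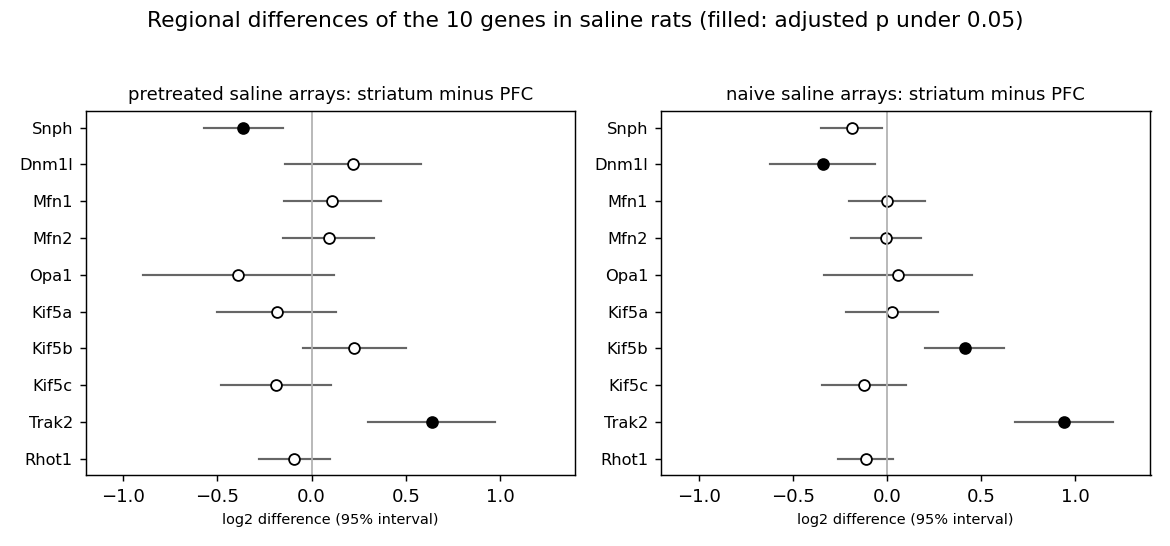
Log2 difference of each of the 10 genes, striatum minus PFC, in the saline arrays of the pretreated cohort (left) and the naive cohort (right), with 95% intervals and filled points for an adjusted p under 0.05. Trak2 is filled in both panels, at 0.64 and 0.94.

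Other genes of mitochondrial transport and dynamics were counted in 7 lists with 87 entries, of which 80 were named on the array. In the pretreated striatum 73 were tested, 0 rose and 0 fell by limma, and 34 had a positive difference. The entries nearest to passing were Mapk8ip1, a kinesin cargo adaptor (0.31 ± 0.08, adjusted p = 0.0643), and Dync1li1, a light intermediate chain of dynein, the motor of the opposite direction (-0.43 ± 0.11, adjusted p = 0.0634). In both, the 9 stimulant arrays did not overlap the 3 saline arrays, as in 2.75% of all genes on the higher and 3.34% on the lower side. Both entries were picked by their p-values, so the lack of overlap adds no support. Of the 11 tested dynein and dynactin genes 3 were positive, with a median of -0.19, and of the 12 tested anterograde adaptors 6, with a median of 0.03, against -0.01 over all genes. Trak1, the paralogue of Trak2, differed by 0.22 ± 0.10 (adjusted p = 0.264), Rhot2 by -0.24 ± 0.15 (adjusted p = 0.432) and Klc1, a kinesin light chain, by 0.26 ± 0.10 (adjusted p = 0.189).
The receptors that recruit DNM1L to mitochondria did not pass either. Mff differed by 0.07 ± 0.09 (adjusted p = 0.72), Fis1 by 0.04 ± 0.11 (adjusted p = 0.881) and Mief2 by 0.37 ± 0.12 (adjusted p = 0.136). The 10 genes of mitochondrial content, 5 of them positive, had a median of -0.00 in the pretreated striatum, where the 8 genes of the axonal cytoskeleton had a median of -0.19 with 2 positive. In the pretreated PFC, the naive striatum and the naive PFC, 0 entries of the 7 lists passed, with 29 of 74, 44 of 73 and 37 of 74 positive.

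Across the 10 group means of a region, the genes whose pattern was most like that of Snph were Nhlrc2 in the PFC (Pearson's r = 0.98) and Gramd2b in the striatum (r = 0.94). The next were Vash1, Akt1, Neurl4 and Trak1 in the PFC (r = 0.96 to 0.97) and Irak1, Idua, Map2k2 and Farp1 in the striatum (r = 0.90 to 0.94). Of the other 9 genes described here, Dnm1l ran most opposite to Snph, with r = -0.84 in the PFC and -0.62 in the striatum. These correlations describe 10 group means that share arrays, cohorts and scaling, and the closest genes were picked from all genes tested.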

How the data were processed

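The deposited values are linear MAS5 intensities per probe set of an Affymetrix rat array, which the authors scaled per array, per the labels, whose processing notes name MAS5 without its version. Their trimmed means were 500.1 to 500.2. Here intensities under 1 were set to 1 and log2 was taken. Of 31099 probe sets 20832 had 1 symbol, 436 several and 9831 none in the platform annotation. Each gene kept its probe set of highest mean, the 40% of genes lowest in mean were left out, and 8530 genes per region were fitted by group with limma 3.58.1 in R 4.3.3 (eBayes with trend, Benjamini-Hochberg adjustment). The members and lists were chosen with earlier results of these data known. The genes named are the 10 members, the list genes nearest to passing and the genes most like Snph. Alternatives were quantile normalization, another filter or none, the mean of probe sets, a pseudocount, blocks and leaving out arrays. The number of arrays limits the precision. The code was tested on simulated data.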

Additional observations from a re-analysis of the deposited data

Results flagged for a closer look

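The effect of the stimulants on Snph at 5 mg/kg in the striatum differed between cohorts by 0.66 on the log2 scale, pretreated minus naive (SE 0.12, adjusted p = 0.027 in limma), and it was singled out because the difference itself passed its test. The effect was 0.53 in the pretreated cohort, where 9 of 9 stimulant arrays lay above all 3 saline arrays, as in 2.75% of all genes. The difference between cohorts holds the gap between the saline groups in it, which was -0.63, pretreated minus naive. A change in the response to the stimulants cannot be told apart from that gap. The call was lost in 10 of 26 fits without 1 array. With the mean of both Snph probe sets the difference between cohorts was 0.51 (adjusted p = 0.103). For the 10 genes, 20 sets of 5 naive saline arrays were screened for 1 far array, by a gap ratio over 0.71, and none was found. The smaller groups were not screened. The rule can miss arrays that move together, as the low-spike saline arrays did for Mfn2 in the naive PFC.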

How the results depend on the processing

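Of 585 alternative values of 55 single-gene differences, 527 kept their direction and their side of the threshold, 42 kept the direction and lost the call, 0 gained one and 16 turned sign, none of those 16 a called difference. Without 1 array, of 753 values 647 kept both, 70 lost the call and 36 turned sign. Only a called difference can lose its call, and most of these 55 differences were uncalled, so both totals understate how often calls were lost. At the extremes, fits without 1 array lost the call in 0 of 10 for Trak2 between regions in naive saline arrays. For Dnm1l between amphetamine doses in the naive striatum they lost it in 6 of 6. The counts of the 10 genes that passed moved as follows, and the cause was not tested. Single stimulants against saline gave 5 calls, 3 with quantile normalization, 2 without the filter, 2 without the trend, 2 with 1 cohort 1 with the mean of probe sets, 6 with the replicate number as a block and 7 without the array of cortical profile, and 2 to 6 without 1 array. Pairs of stimulants gave 2 calls, 1 without the filter, 0 with the mean of probe sets or 1 cohort, and 0 to 3 without 1 array. Doses gave 2 calls, 1 without the filter, with the mean of probe sets or with 1 cohort, 0 with the spike group as a block, 3 with the replicate number as one, and 1 to 4 without 1 array. The cohort difference gave 1 call, 2 with 60% of genes filtered or without the array of cortical profile, 0 with the mean of probe sets, and 0 to 3 without 1 array. The pretreated striatum gave 3 calls, 0 with the mean of probe sets, 1 with both saline groups and 0 to 3 without 1 array. The regional comparison gave 5 calls and 4 to 6 under the alternatives. Same-numbered arrays of different groups in the same region had a median correlation of 0.19 in the pretreated PFC, where 12 of 18 were over 0.1. Arrays of unlike number there had a median of -0.07. The medians of same-numbered arrays were -0.02 to 0.03 in the other 3 sets. Not every pair was over 0.1 in any set, so the numbers were not taken to pair arrays within a region. That rule is strict and cannot exclude pairing. Pairing of PFC with striatal arrays was not checked. With the replicate number as a block, pairs gave 4 calls, the cohort difference 3, and Mfn2 for the mean of the stimulants in the naive PFC was 0.18. In that fit Kif5a (adjusted p = 0.0755), Kif5b (adjusted p = 0.0619) and Mfn2 (-0.16, adjusted p = 0.288) after 1.25 mg/kg methamphetamine in the naive PFC did not pass. Differences of uncalled genes that turned sign were, with quantile normalization, Kif5b in the naive PFC (-0.020) and Trak2 in the pretreated PFC (0.0030), and with the mean of probe sets Opa1 (0.071) and Trak2 (0.016) in the pretreated PFC. Within the high-spike arrays they were Dnm1l (-0.016) and Mfn2 (0.0080) in the naive PFC and Dnm1l (-0.094) and Rhot1 (-1.66e-05) in the naive striatum. Within the low-spike arrays they were Opa1 (0.11), Kif5a (-0.12), Kif5b (-0.15), Kif5c (-0.024) and Rhot1 (0.15) in the naive PFC and Mfn1 (-0.063) and Mfn2 (-0.075) in the naive striatum. Without 1 array these ran across 0 in the naive PFC for Dnm1l (-0.092 to 0.073), Mfn2 (-0.095 to 0.072) and Opa1 (-0.13 to 0.013), in the naive striatum for Mfn1 (-0.036 to 0.056), Mfn2 (-0.0082 to 0.12) and Dnm1l (-0.046 to 0.071), in the pretreated PFC for Dnm1l (-0.16 to 0.19), Mfn1 (-0.037 to 0.14), Trak2 (-0.054 to 0.045) and Opa1 (-0.061 to 0.022), and in the pretreated striatum for Mfn2 (-0.13 to 0.022).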

Other observations

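Genes around mitochondria that the text above does not name did not pass in limma in the pretreated striatum. Usp30, an outer membrane deubiquitinase that opposes mitophagy, differed by -0.39 (adjusted p = 0.109), and the 9 tested quality control genes had a median of 0.01 with 5 positive. Miga2, an outer membrane protein with a role in fusion, differed by 0.30 (adjusted p = 0.0936), and the 13 tested fusion and cristae genes had a median of -0.01 with 6 positive. The 10 tested fission partners had a median of 0.10 with 7 positive. Nefm, the medium neurofilament chain, differed by -0.36 (adjusted p = 0.138).

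Of the 8 lists of cell type markers, 0 of 32 tested genes passed in limma in the pretreated striatum. The median difference there was -0.26 over the 6 striatal projection neuron markers, -0.24 over the 6 oligodendrocyte markers, 0.19 over the 5 astrocyte markers, 0.17 over the 4 microglial markers, 0.06 over the 3 neuronal markers, -0.08 over the 4 endothelial markers and -0.30 for the 1 blood marker. In the naive PFC 1 of 33 fell, Mag, a myelin protein (-0.53, adjusted p = 0.0483).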
